A study of Mus musculus with 2 samples.

Results

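The Id proteins and the E proteins are helix-loop-helix factors of lymphocytes, and 6 of their genes were followed here: the inhibitor genes Id1, Id2 and Id3 and the E protein genes Tcf3, Tcf12 and Tcf4. They were found by Entrez identifier among 24440 features of the authors' expression table, of which 13056 carried such an identifier, and all 6 had a value. They were chosen by their family and with their FPKM in this comparison already known, so the differences between the libraries are a description and carry no test.

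Mice of the strain C57BL/6, wild type and 6 to 8 weeks old, gave CD4+ T cells whose RNA was taken after 48 h in Th17 conditions, which drive T helper 17 differentiation. In the control culture the antigen presenting cells (APCs) were wild type (WT), and in the other they were OX40L-TG, that is, transgenic for OX40L, which binds the costimulatory receptor OX40. Each culture gave 1 library, called the WT-APC and the OX40L-TG-APC library, so no difference has a replicate check and what is compared is a pair of libraries rather than the conditions. The labels do not say which promoter drives the transgene, which cells served as APCs, whether they were removed before lysis or whether animals were pooled.

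E proteins bind DNA at E-boxes, written CANNTG, as pairs with one another or with other helix-loop-helix factors. Id proteins have the helix-loop-helix by which such factors pair but not the basic stretch that touches DNA, so an E protein held by an Id protein cannot bind. The balance of the 2 classes sets E protein activity and is known for its part in thymocyte maturation, B cell commitment, innate lymphoid cells and the choice between T helper fates. Id1 and Id3 are textbook targets of BMP signalling through SMAD proteins, and Id3 is also induced by T cell receptor signals through Egr factors.

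The stretches before the transcription starts of Id2 and Id3 are shown because these are the abundant Id genes and they differed in opposite directions. Both are from RefSeq on GRCm38.p6, read 5′ to 3′ on the strand of the gene, and hold the 250 bases before the start. Id2 lies on the minus strand at chr12:25096093-25096342 and Id3 on the plus strand at chr4:136143572-136143821. Capitals mark an E-box (CANNTG) or the SMAD motif CAGAC, which is GTCTG on the other strand.
Id2: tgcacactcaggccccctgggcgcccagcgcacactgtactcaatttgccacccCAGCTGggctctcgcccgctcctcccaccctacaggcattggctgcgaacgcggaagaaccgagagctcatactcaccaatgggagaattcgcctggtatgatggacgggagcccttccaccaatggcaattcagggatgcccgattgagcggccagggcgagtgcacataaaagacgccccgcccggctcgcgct
Id3: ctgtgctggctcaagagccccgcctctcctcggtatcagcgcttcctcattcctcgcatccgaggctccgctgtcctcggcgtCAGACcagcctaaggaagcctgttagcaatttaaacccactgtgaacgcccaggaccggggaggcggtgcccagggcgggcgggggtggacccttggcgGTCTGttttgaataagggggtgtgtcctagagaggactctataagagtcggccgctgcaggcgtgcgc
The Id2 stretch held 1 E-box, CAGCTG, beginning 196 bases before the start, and no CAGAC. In Id3 there were 2 matches of CAGAC, beginning 167 and 68 bases before the start, and no CANNTG. Over the 32851 RefSeq promoters of the table, the 250 bases before the start held CANNTG in 66.2%, CAGCTG, which is 1 form of it, in 13% and CAGAC on either strand in 42.2%. The BMP-type SMAD motif GGCGCC had 1 match in Id2 and 0 in Id3 (9.59% of promoters). The Egr motifs GCGTGGGCG and GCGGGGGCG had 0 matches in both (0.536% and 2.57% of promoters). These are matches of letters, not observed binding, and no entry of Id1 was found in the promoter table.

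Levels are FPKM (fragments per kilobase of transcript, scaled for library size), which can be compared between genes because they are per length. Change is the log2 ratio of FPKM + 1, OX40L-TG-APC over WT-APC, which understates the ratio of low genes. A gene counted as higher or lower at 2-fold on this scale, if its larger value was at least 1 FPKM. Of the 10645 genes that passed, 2.26% were higher and 1.32% lower, and the median change of all was 0.11. Among the 6 genes, all of which passed, 2 were higher (Id1 and Id3) and 0 were lower. Plain ratios are given with 95% exact Clopper-Pearson intervals from estimated fragments, which cover counting error only. Estimated depth was 24200000 fragments with WT APCs, against 27700000 in the other library.

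Id2, an inhibitor linked to effector T cells and required for innate lymphoid cells, was the highest of the 6 genes in both libraries. It stood at 107 FPKM in the WT-APC library and 65.2 FPKM in the OX40L-TG-APC library. It was thus 1.65-fold lower with OX40L-TG APCs (1.56 to 1.74), a change of -0.71, short of 2-fold. With the median ratio of genes with at least 10 FPKM in both libraries set to 1, the change of Id2 was -0.84. With equal FPKM totals it was -0.89, also short of 2-fold. Its printed locus, chr12:25093799-25096092, matches the RefSeq gene exactly and holds no other gene. Of the 10645 genes, 269 had a lower change.

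Id3, an inhibitor gene that T cell receptor signals can induce, went the other way. It stood at 17.7 FPKM with WT APCs and 50.4 FPKM with OX40L-TG APCs, a ratio of 2.84 (2.59 to 3.14) and a change of 1.46. The change of Id3 was 1.33 with the median ratio set to 1 and 1.28 with equal FPKM totals. Its locus, chr4:136143822-136145392, is also that of the RefSeq gene and of no other. By level it moved from the 59.6 to the 84.5 percentile of the genes that passed, and 84 of these had a higher change. The authors' deposited table, whose 398 genes all differ at least 2-fold by the plain ratio and have p-values under 0.05, lists Id3 with a log2 ratio of 1.54 and a p-value of 0.00185. That p-value compares the libraries and is not adjusted. Of the 6 genes the authors' deposited table lists only Id3. Among the 13056 genes with an Entrez identifier, that table marks 254, or 1.95%, as up.

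Id1, best known as a BMP target in endothelial and other adherent cells, was low in both libraries. It stood at 0.394 FPKM with WT APCs and 3.12 FPKM with OX40L-TG APCs. The ratio of 7.91 had a wide interval, 4.09 to 17.0, since about 10 fragments stood behind the lower value and 90 behind the higher. The change was 1.56 with a pseudocount of 1 and 0.59 with a pseudocount of 5, so its place among the higher genes depends on that setting. The authors' deposited table does not list it. Its printed locus, chr2:152736274-152748782, spans 12509 bases, whereas the RefSeq gene spans 1160 bases. The rest of the locus includes the pseudogene Gm14162, which had no row of its own, so the value may hold fragments from outside Id1.

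Tcf3, which encodes E2A and through alternative splicing both of its products, was the highest E protein gene. It stood at 39.1 FPKM with WT APCs and 45.1 FPKM with OX40L-TG APCs, a ratio of 1.16 (1.10 to 1.22). The median ratio of the 6038 genes with at least 10 FPKM in both libraries was 1.09. Relative to it the change of Tcf3 was 0.080, and 0.029 with equal FPKM totals, so Tcf3 moved little beyond the library as a whole. Its locus is chr10:80409165-80433653.

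Tcf12, which encodes HEB, stood at 24.5 FPKM with WT APCs and 21.3 FPKM with OX40L-TG APCs. It was 1.15-fold lower (1.06 to 1.24), with a change of -0.19 that became -0.31 when the median ratio was set to 1. The locus, chr9:71844252-72111819, spans 267568 bases and includes the pseudogenes Gm18821 and Rpl15-ps2. The long and short HEB forms come from different starts in this locus, and the gene value does not separate them.

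Tcf4, which encodes E2-2, the defining factor of plasmacytoid dendritic cells, was the lowest E protein gene. It stood at 4.16 FPKM with WT APCs and 2.14 FPKM with OX40L-TG APCs, 1.94-fold lower (1.52 to 2.48). Its change of -0.71 equalled that of Id2 to 2 decimals, although the plain ratio was further from 1, as a low gene gives on this scale. By the median transcript length some 185 and 109 fragments stood behind the values, and by the longest transcript there would be more. The ratio of 0.516 had an interval of 0.403 to 0.656 with the median length and 0.461 to 0.576 with the longest. The RefSeq noncoding gene Gm31439 lies within the locus, chr18:69344492-69687967.

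**Figure D1:**
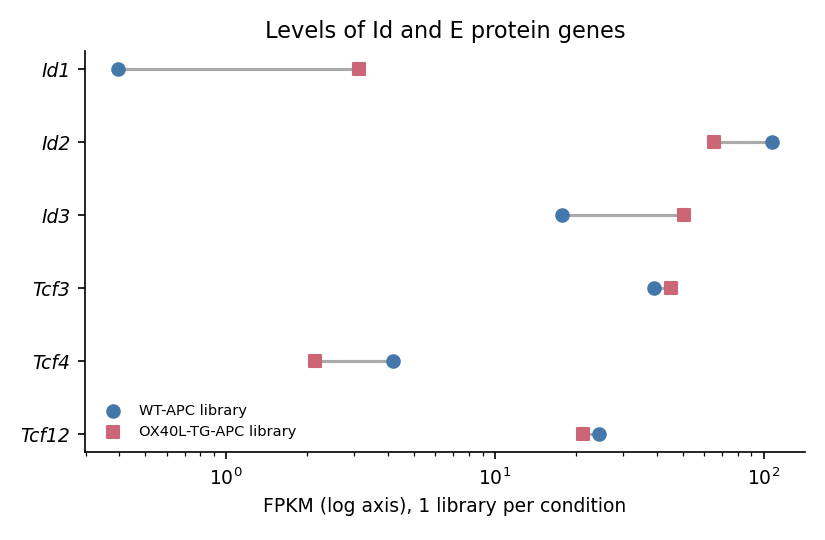
FPKM of the 6 genes on a log axis, circles for the WT-APC library and squares for the OX40L-TG-APC library (1 library each). Id1 (0.394 to 3.12) and Id3 (17.7 to 50.4) lie higher with OX40L-TG APCs, Id2 (107 to 65.2) and Tcf4 (4.16 to 2.14) lower, and Tcf3 and Tcf12 close together.

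In order of level the WT-APC library ran Id2, Tcf3, Tcf12, Id3, Tcf4 and Id1. With OX40L-TG APCs the order was Id2, Id3, Tcf3, Tcf12, Id1 and Tcf4. Id3 passed both Tcf3 and Tcf12, and Id1 passed Tcf4. Without replicates the spread of the levels is unknown, so it cannot be said which neighbours differ beyond it.

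In the deposited FPKM the summed level of the Id genes hardly differed between the libraries while its makeup did. The ratio of the Id sums, OX40L-TG-APC over WT-APC, was 0.946. The median ratio of the 6038 genes with at least 10 FPKM in both libraries was 1.09, so against these genes the Id sum was lower. The sum was 125 FPKM with WT APCs and 119 FPKM with OX40L-TG APCs, and that of the E protein genes was 67.7 and 68.6 FPKM. The ratio of Id to E protein FPKM was therefore 1.85 and 1.73, a log2 difference of -0.099. Within the Id sum, Id2 made up 85.6% in the WT-APC library but 54.9% in the OX40L-TG-APC library. Id3 made up 14.1% and 42.5%, and Id1 0.314% and 2.63%. The ratio of Id3 to Id2 was 0.165 in the WT-APC library and 0.774 in the OX40L-TG-APC library, 4.68 times as large. Since both values of each ratio come from the same library, this factor does not depend on how the libraries were scaled.

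The E protein sum was more even between the libraries. Tcf3 made up 57.7% and 65.8% of it, Tcf12 36.2% and 31.1%, and Tcf4 6.14% and 3.13%, WT-APC first. The near equality of the Id to E protein ratio is that of the sums, in which Id2 and Id3 offset each other. Without Id2 the log2 difference was 1.54, and without Id3 it was -0.68. With geometric means, which weight each gene alike, it turned to 1.00. RNA levels say nothing of protein amounts or of which pairs form.

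**Figure D2:**
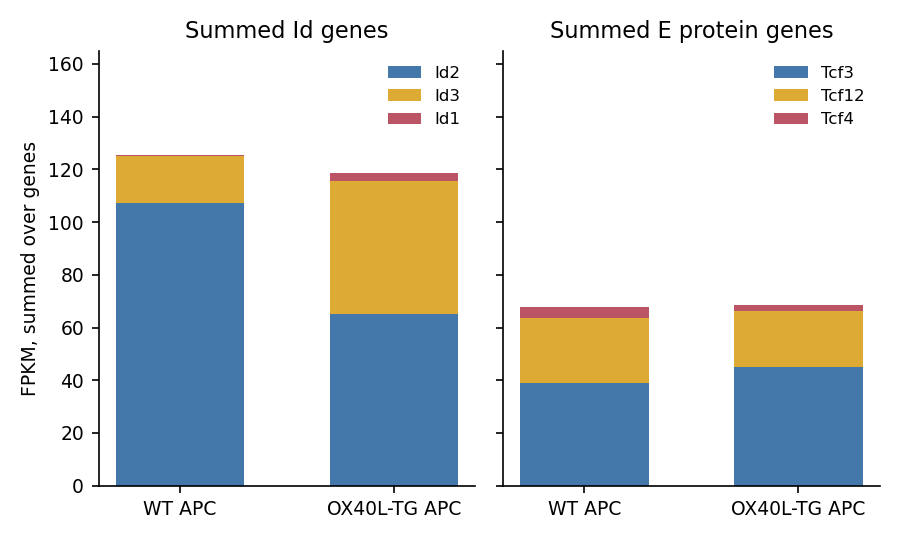
FPKM summed over the 3 Id genes (left) and the 3 E protein genes (right) in each library, stacked by gene from a baseline of 0. The Id sums, 125 and 119 FPKM, are close, while Id3 grows from 14.1% to 42.5% of the stack.

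**Figure D3:**
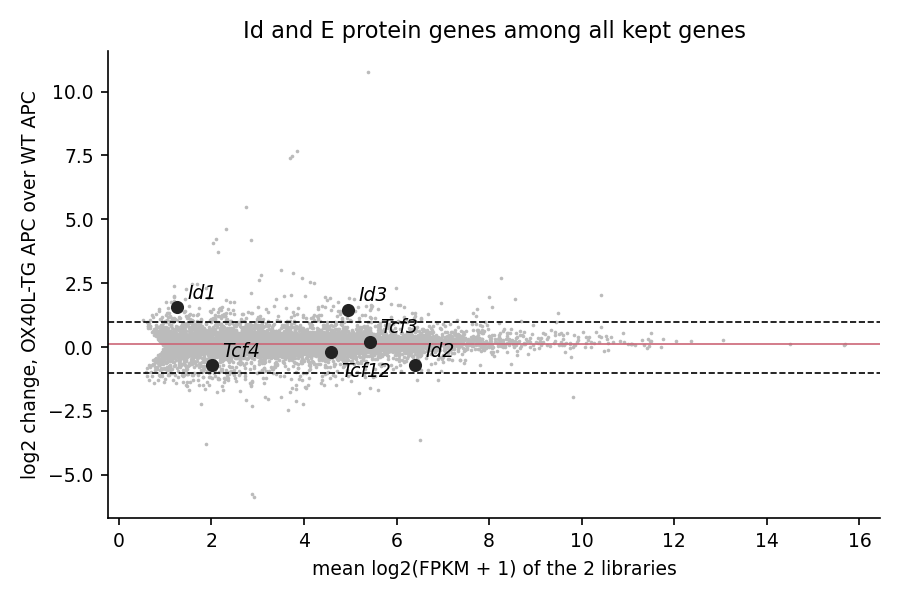
Log2 change of FPKM + 1, OX40L-TG APC over WT APC, against mean level for 10645 genes (grey), with the 6 genes in black. Dashed lines mark 2-fold and the coloured line the median change of 0.11, and Id1 and Id3 lie above the upper dashed line.

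The genes whose levels lay nearest to each Id gene were sought among 10306 protein-coding genes, by Euclidean distance in log2(FPKM + 1) over the 2 libraries. Nearest to Id3 were Lss and Mvd, enzymes of cholesterol synthesis, and Crem, a cAMP-responsive transcription factor gene. Lss stood at 18.0 and 48.5 FPKM, at a distance of 0.061. Nearest to Id1 were Adm, the gene of adrenomedullin (0.336 and 3.19 FPKM, distance 0.066), the cytokine gene Il24 and Tle6. Nearest to Id2 were AI467606 (98.3 and 63.7 FPKM, distance 0.13), Nup210 and Samhd1. With 2 libraries many genes can lie close, so this is a description of level only.

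Genes upstream of the Id genes were read next, from lists chosen with earlier results of these data known. Of the 31 genes of BMP and TGF-beta signalling, 28 had a row and 20 passed, of which 2 were at least 2-fold higher, 1 was lower and 17 were neither. Acvrl1, which encodes the type I receptor ALK1, stood at 10.5 FPKM with WT APCs and 33.2 FPKM with OX40L-TG APCs, a ratio of 3.18 (2.87 to 3.53). Tgfb3, a ligand gene, had values of 2.34 and 8.04 FPKM, and their ratio was 3.43 (2.92 to 4.04). Acvr2a, a type II receptor gene, stood at 4.28 and 1.37 FPKM, 3.13-fold lower, at a locus that holds 2 other genes. The list median was 0.096, beside 0.11 for all genes. With a pseudocount of 5 the list held 1 higher and 0 lower genes. Bmp2 was at 0 in both libraries, and Bmp6 was at 0 with OX40L-TG APCs. Both are among the 8 genes under 1 FPKM in both libraries, which summed to 1.53 FPKM with WT APCs and 2.34 FPKM with OX40L-TG APCs.

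The genes of receptor signalling to ERK, Egr and NFAT held none at 2-fold among 14 that passed, with a median of -0.020. Rasgrp1, an activator of Ras, had the largest change, with 9.33 FPKM in the WT-APC library and 16.7 FPKM in the OX40L-TG-APC library. Map2k1, which encodes the kinase MEK1, stood at 61.0 and 93.4 FPKM. Neither reached 2-fold. Of the 14, 9 lay below the median of all genes. The Egr genes, named here after their values were seen, did not all go one way. Egr2 stood at 30.2 FPKM with WT APCs against 21.3 FPKM, a ratio of 0.707 (0.630 to 0.794), and Egr1 at 25.8 against 19.2 FPKM, a ratio of 0.743 (0.700 to 0.789). Egr3 stood at 9.42 against 10.6 FPKM.

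Genes that act on the proteins themselves differed by less than 2-fold. Of 10 genes of Id and E protein turnover, all of which passed, none was at 2-fold, 8 had a change above the all-gene median and the list median was 0.18. Fzr1, which encodes the CDH1 subunit of the anaphase-promoting complex, had values of 36.7 and 50.3 FPKM, with a ratio of 1.37 (1.29 to 1.45). Cdc20 stood at 105.6 and 136 FPKM, with a ratio of 1.29 (1.24 to 1.34). Of 11 co-regulator genes, 7 passed and none was at 2-fold, with a median of -0.10. The largest changes were those of the acetyltransferase genes Crebbp (18.7 and 15.0 FPKM) and Kat2b (15.5 and 12.6 FPKM).

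Among 18 genes of tissue-specific partners of E proteins 3 had a row and only Lyl1 passed (2.16 and 1.64 FPKM), and its interval of 0.560 to 1.04 included 1. Id4, the fourth Id gene, had no row among the features with an Entrez identifier and so could not be analysed. Other factors that bind E-boxes had 1 lower and 0 higher genes among 8, with a median of 0.37. Hey1, a Notch target gene, stood at 10.8 FPKM with WT APCs and 3.54 FPKM with OX40L-TG APCs, at a locus with 1 other gene. Bhlhe40, a repressor gene of activated T cells, stood at 213 and 408 FPKM, a change of 0.93 at a locus with 6 other genes. Hey1 was no longer at 2-fold with a pseudocount of 5.

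Genes described as E protein targets in T cells went both ways. Of 20, 15 had a row and 14 passed, of which 2 were at least 2-fold higher and 1 lower, with a median of -0.085. Il7r, the gene of the IL-7 receptor, stood at 13.3 FPKM with WT APCs and 47.8 FPKM with OX40L-TG APCs. Il9, a cytokine gene, stood at 0.706 and 29.8 FPKM, and Il10 at 36.7 and 16.3 FPKM. With a pseudocount of 5 none of this list was lower.

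Genes described as E protein targets in B cells were mostly lower. Of 13, 11 passed, of which 5 were lower by at least 2-fold and 1 was higher, and the list median was -0.90. Pou2af1, a B cell coactivator gene, stood at 33.0 FPKM with WT APCs and 6.21 FPKM with OX40L-TG APCs. Blnk, an adaptor gene of B cell receptor signalling (7.02 and 2.32 FPKM), and Cd79a, which encodes a chain of that receptor (6.52 and 2.20 FPKM), were also among the lower genes. Irf8, a factor gene shared by B, dendritic and activated T cells, was the higher one at 28.4 and 64.1 FPKM, though not with equal FPKM totals. With a pseudocount of 5 only 1 gene of this list was lower.

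Tcf4 is a gene that B cells and plasmacytoid dendritic cells express, and B cell markers had lower values with OX40L-TG APCs too. All 10 B cell markers passed, 5 were at least 2-fold lower (0 with a pseudocount of 5) and the median was -1.01. Their summed level was 61.5 FPKM with WT APCs and 25.1 FPKM with OX40L-TG APCs, and none was at 0. Plain ratios ran from 0.252 to 0.547, and that of Tcf4, 0.516, lay within this range. In a bulk library fewer cells of a type and less RNA per cell cannot be told apart. The part of B cells in the values of Tcf4, Tcf3 and Id3 was not tested.

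Markers of plasmacytoid dendritic cells went both ways. Of 8, 4 passed: Spib was lower (6.70 and 2.36 FPKM), Irf8 was higher, and Bst2 and Pacsin1 were neither. Siglech was at 0 with OX40L-TG APCs and Klk1 was at 0 in both libraries. The 4 that did not pass, these 2 among them, summed to only 0.211 FPKM with WT APCs and 0.159 FPKM with OX40L-TG APCs. Of the 8 natural killer and innate lymphoid markers, whose cells hold much Id2, 2 passed. They were Rora (66.3 and 40.7 FPKM), which Th17 cells also express, and Gzma (3.87 and 2.89 FPKM). The summed level of this list was 70.9 and 44.7 FPKM, most of it Rora in both libraries, at a locus with 5 other genes. The 6 markers of this list that did not pass summed to 0.761 FPKM with WT APCs and 1.08 FPKM with OX40L-TG APCs. The 8 conventional dendritic cell markers summed to 6.95 and 23.7 FPKM, and 2 passed. Only Batf3 makes this sum higher with OX40L-TG APCs. Flt3 was lower, and so was the sum of the 6 markers that did not pass (1.31 and 1.09 FPKM). Batf3, also a gene of activated T cells, stood at 2.18 and 21.5 FPKM, at a locus with 7 other genes. Flt3, a receptor gene of dendritic cell precursors, was 3.17-fold lower, at 3.46 and 1.09 FPKM. Clec9a and Clec10a were at 0 with OX40L-TG APCs and Cd209a was at 0 with WT APCs.

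The 8 monocyte and macrophage markers summed to 13.0 and 6.22 FPKM, with Lyz2 and Tyrobp at least 2-fold lower of 4 that passed. Of endothelial and stromal markers, whose cells are rich in Id1, 4 of 8 had a row and only Pecam1 passed, at 22.7 FPKM with WT APCs and 7.55 FPKM with OX40L-TG APCs. The other 3 with a row summed to 0.076 FPKM with WT APCs and 0.013 FPKM with OX40L-TG APCs, so both libraries were near 0 for them. The difference in this list is thus that of Pecam1 alone and does not measure these cell types. The CD8 markers Cd8a and Cd8b1 summed to 7.02 and 6.33 FPKM. The labelled cell type was borne out by its markers, since all 10 T cell genes, Cd4 and Cd3e among them, lay between 86.5 and 407 FPKM in both libraries. None of these 10 was at 2-fold, and their median was 0.097. The part of the other cell types in the levels of the Id and E protein genes was not tested.

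**Figure D4:**
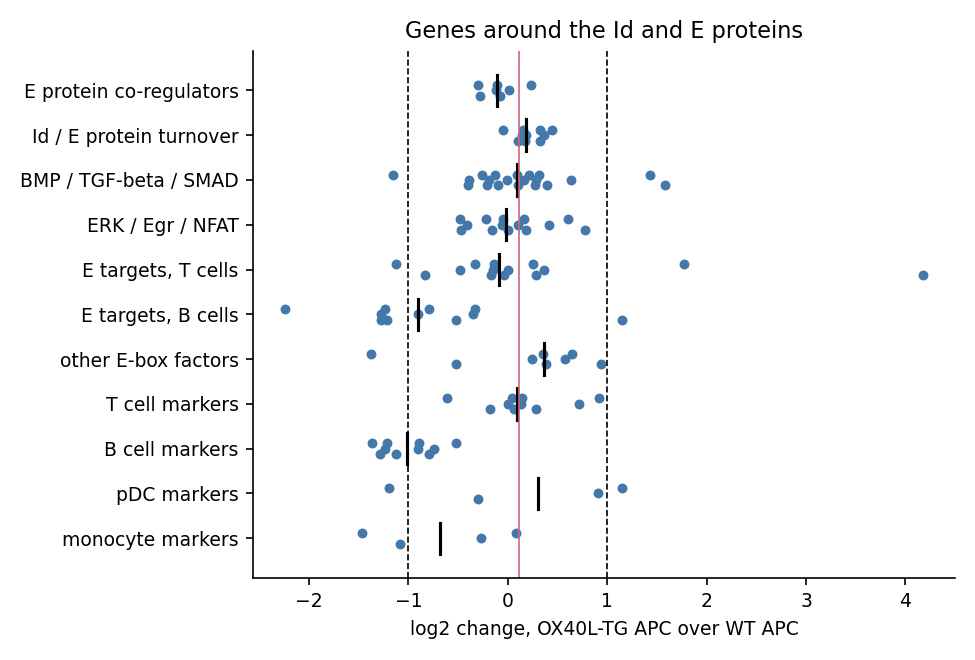
Log2 change of FPKM + 1, OX40L-TG APC over WT APC, for each gene that passed (points) in lists with at least 4 such genes, with list medians (black bars). Dashed lines mark 2-fold and the coloured line the median of all genes, 0.11; the 10 B cell markers (median -1.01) all lie to its left and the T cell markers (median 0.097) around it.

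The printed loci of the long E protein genes carry further features, whose identifiers begin with n and come with no explanation. At the Tcf12 locus there were 9, and all 9 were lower with OX40L-TG APCs. Their lowest, median and highest values were 0.459, 0.647 and 1.35 FPKM with WT APCs, and 0.289, 0.490 and 0.830 FPKM with OX40L-TG APCs. Their ratios ran from 0.467 to 0.845 with a median of 0.635, whereas the ratio of Tcf12 itself was 0.871. Of all 4718 features of this kind, 68.5% were lower with OX40L-TG APCs and the median ratio was 0.804. The count at Tcf12 is to be read against that share, and the 9 share a locus and are not independent. At the Tcf4 locus there were 4 such features, 3 of them lower, with ratios from 0.436 to 1.75.

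**Figure D5:**
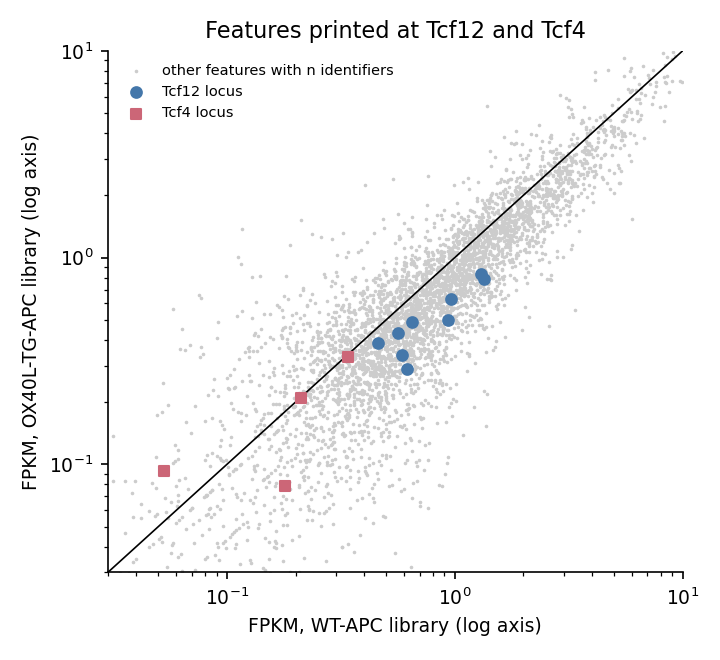
FPKM in the OX40L-TG-APC library against the WT-APC library, both on log axes, for features with n identifiers that lie within the axes (grey) and those printed at the Tcf12 (circles) and Tcf4 (squares) loci. The 9 at Tcf12 lie below the line of equal values, as do most of the grey points.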

How the data were processed

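RNA was sequenced from 2 cultures, 1 library each. Per the submitters' processing notes the authors used TopHat2, Cuffdiff and the build mm9. Their versions, annotation, strandedness and filtering are not given in the sources used here. The authors deposited FPKM values per feature, and a table of selected genes with FPKM, log2 ratio and p-value, per the file headers. Printed loci follow GRCm38 and are given 1-based.

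Symbols and neighbouring genes came from RefSeq (GRCm38.p6) by Entrez identifier. Change was log2((FPKM + 1) ratio) for genes with a larger value of at least 1 FPKM. Depth was estimated from the steps in FPKM that 1 fragment makes in 88 low genes with a single transcript (under 0.3 FPKM, at least 1500 bases). At a depth ratio of 1.14, 70.5% of these gave whole-number ratios within 0.2%, against 1.14% at a ratio shifted by 1.3%. Fragments per gene used the median length of GENCODE M21 protein-coding transcripts, with no correction for fragment length. Scripts were tested on simulated data. With 1 library per group no test was run.

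The members and lists were chosen with earlier results of these data known. Named list genes were those at 2-fold or, otherwise, the 2 with the largest change; some list genes are not reported here by name. Alternatives were other pseudocounts, no filter, 2 scalings and sums without single genes. Work was done in Python 3.11.15 with numpy 2.4.6, pandas 2.3.3, scipy 1.17.1 and matplotlib 3.10.9.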

Additional observations from a re-analysis of the deposited data

Results flagged for a closer look

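Near 2 of the genes lay assembled features outside the gene models, with values above the limit that a count of 0 allows (3 fragments). A feature at chr4:136147428-136147752, which begins 2035 bases past the end of Id3 and whose identifier carries a minus sign, stood at 1.65 FPKM in the WT-APC library, about 13 fragments, and was listed at 0 in the OX40L-TG-APC library. A feature at chr9:72112130-72112711, 310 bases beyond the Tcf12 locus, stood at 0.807 FPKM in the WT-APC library and 0.480 FPKM in the OX40L-TG-APC library, about 11 and 8 fragments. The fragment numbers take the printed span as the length.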

How the results depend on the processing

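The 6 changes kept their sign in all 13 comparisons that could turn it, with another scaling or, for Id3, the authors' deposited table; a pseudocount or a filter cannot turn a sign. The number of the 6 genes at least 2-fold higher was 2, and 1 with a pseudocount of 5, which leaves Id3; the number lower was 0 under each setting tried. The log2 difference of the Id to E protein ratio, -0.099, was 1.54 without Id2, -0.68 without Id3 and 1.00 with geometric means, which weight Id1 like Id2. Without Tcf4 it was -0.14. Of the 7 pathway list counts above 0, 5 moved by over 1.5 times with a pseudocount of 5, as did 2 of 28 comparisons under the other settings. For cell type lists these settings were added after seeing the data. With a pseudocount of 5, 0 of the 10 B cell markers were lower, against 5 as reported, and none of the dendritic cell or monocyte markers was lower. Intervals with the longest transcript stayed on the same side of 1. No paired analysis was possible because each group has 1 library. Depth limits Id1 most, with about 10 fragments in the WT-APC library.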
